A study of Mus musculus with 8 samples.

Results

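Sstr5, Procr, Cxcr4, Abca8b, Slc22a23, Extl1, Smarcd3, Eid3 and Lexm are 9 of the 54232 genes in the expression table, found by their symbols. They were chosen by their measured rise after C28 and by their absence from lists of classic stress genes. The direction of their change is therefore given as a description, without a test. RNA was sequenced from mouse cells of C57BL/6 background exposed to C28 for 3 h (3 libraries; the compound is known by its code and appears as 028 in sample names), and from cells given the solvent DMSO (3 libraries). All cells are labelled female germline stem cells, meaning dividing germ cells of the ovary kept in culture. The labels do not say whether the replicates were separate cultures, so the spread between libraries may be technical. H3K27ac, a histone mark of active regulatory DNA, was profiled in 1 C28 and 1 control library, which were not used here because the positions of these genes on the mouse build of the peaks were not at hand.

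The genes do not form a pathway. Sstr5 and Cxcr4 encode receptors of the cell surface that couple to inhibitory G proteins, the first for the peptide hormones somatostatin and cortistatin and the second for the chemokine CXCL12, which holds blood stem cells in the bone marrow and guides leukocytes. Procr encodes the endothelial protein C receptor, which presents protein C to the thrombin and thrombomodulin complex that activates it, and is also used as a surface marker of blood stem cells. Abca8b is a lipid transporter of the ABC superfamily, and Slc22a23 an orphan of a family that carries organic ions. Extl1 belongs to the exostosin family of glycosyltransferases, which build heparan sulphate chains. Smarcd3, or BAF60C, is an accessory subunit of the BAF chromatin remodelling complex, best known from heart and skeletal muscle. Eid3 is a small relative of the EID inhibitors of the acetyltransferase EP300 and, in human cells, a subunit of the SMC5/6 complex. Lexm carries the name lymphocyte expansion molecule, and no role is given for it here.

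Start-site sequences were at hand for 7 of the 9 genes, from RefSeq on build GRCm38.p6. Each runs from 250 bases before to 50 bases after 1 annotated start site, and all 4 below read 5′ to 3′ along the gene. They were picked after the search because they hold a match to a motif of the stress factors NRF2 or HSF. Capitals mark the matches to any of 6 motifs searched on both strands, namely the antioxidant response element core TGACNNNGC, the heat shock element GAANNTTC, the C/EBP-ATF element core TGATGNAA, the AP-1 site TGANTCA, the E-box CACGTG and the GC box GGGCGG.
Procr, chr2:155750967-155751266, plus strand: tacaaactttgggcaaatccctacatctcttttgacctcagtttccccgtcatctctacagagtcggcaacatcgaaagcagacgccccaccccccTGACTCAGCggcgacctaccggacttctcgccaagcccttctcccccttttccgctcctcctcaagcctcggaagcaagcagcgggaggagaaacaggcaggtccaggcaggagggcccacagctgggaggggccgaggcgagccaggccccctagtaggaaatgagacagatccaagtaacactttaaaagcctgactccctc
Lexm, chr4:106617189-106617488, minus strand: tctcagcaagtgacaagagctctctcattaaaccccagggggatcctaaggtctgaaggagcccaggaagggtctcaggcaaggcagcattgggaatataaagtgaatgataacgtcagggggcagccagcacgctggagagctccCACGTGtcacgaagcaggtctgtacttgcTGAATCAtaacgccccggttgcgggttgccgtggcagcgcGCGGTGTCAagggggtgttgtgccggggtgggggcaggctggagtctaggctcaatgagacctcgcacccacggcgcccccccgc
Abca8b, chr11:109995796-109996095, minus strand: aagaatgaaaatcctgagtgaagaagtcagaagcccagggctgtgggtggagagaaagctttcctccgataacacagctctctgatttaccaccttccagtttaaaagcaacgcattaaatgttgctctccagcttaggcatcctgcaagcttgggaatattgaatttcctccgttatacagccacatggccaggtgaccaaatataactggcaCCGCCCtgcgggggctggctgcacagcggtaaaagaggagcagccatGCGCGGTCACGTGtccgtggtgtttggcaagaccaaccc
Cxcr4, chr1:128592250-128592549, minus strand: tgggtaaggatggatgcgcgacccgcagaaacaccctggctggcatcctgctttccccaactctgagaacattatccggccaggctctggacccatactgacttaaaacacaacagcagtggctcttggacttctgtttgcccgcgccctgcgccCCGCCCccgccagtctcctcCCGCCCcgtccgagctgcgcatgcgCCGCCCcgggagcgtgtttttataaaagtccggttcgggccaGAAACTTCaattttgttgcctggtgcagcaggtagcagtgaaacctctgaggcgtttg

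The antioxidant response element core, to which NRF2 binds with small MAF proteins, was present in 3 of the 7 windows and in 12.4% of all 32851 windows of the same length. In Procr it starts 154 bases before the start site, and its first 7 letters are also an AP-1 site. In Lexm it lies on the opposite strand, 35 bases before the start site, with an AP-1 site further upstream. The Abca8b match lies 11 bases after the start site on the opposite strand and overlaps an E-box. The heat shock element was present in 1 of the 7, Cxcr4, where it begins 8 bases before the start site, and in 7.86% of all windows. The AP-1 site was found in 2 of the 7 against 7.81% of all windows, the E-box in 2 against 7.15%, the GC box in 4 against 35.7% and the C/EBP-ATF element in 0 against 3.97%. A match describes letters within 1 window and is not evidence of binding.

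The RNA libraries held 16930212 to 19197376 reads on genes. Of 7 germ cell markers, 5 had fewer than 10 reads over all libraries, 2 of which had none, and most of the summed level of the list (91.3 to 275.5 normalized counts with C28, 80.4 to 288.9 with DMSO) came from Ifitm3, an antiviral membrane protein not restricted to germ cells. Ddx4, the germ cell RNA helicase, was at 0, 1.07 and 1.03 normalized counts with C28 and at 0, 0 and 1.91 with DMSO, so this defining marker of the labelled cell type was close to absent. Markers of mast cells and blood summed to 57289 to 60903 normalized counts with C28 and 60728 to 65652 with DMSO. Most of that sum came from Kit, Gata2, Ptprc and Cpa3, whereas 5 of the 12 markers had fewer than 10 reads over all libraries. Fcer1a, a chain of the mast cell IgE receptor, and the tryptase gene Tpsb2 had none. Fcer1g, of the same list, was at 1691, 1369 and 1373 with C28 and at 1585, 1288 and 1271 with DMSO. Cma1 was at 12.5, 31.1 and 26.7 with C28 and at 9.35, 29.5 and 26.8 with DMSO. Ptprc, the pan-leukocyte protein CD45, lay between 7229 and 8917 with C28 and between 6568 and 8157 with DMSO. Macrophage markers summed to 940.2 to 2221 with C28 and 946 to 2515 with DMSO, fibroblast markers to 1121 to 2811 with C28 and 1070 to 2700 with DMSO, and granulosa markers to 8.59 to 18.7 with C28 and 8.61 to 14.3 with DMSO. Across genes averaging at least 50 normalized counts, libraries of the same replicate number deviated together from their group means (r = 0.84, 0.68 and 0.71 for replicates 1 to 3), and replicate 1 stood apart from replicates 2 and 3 in both arms. These deviations bear on several of the values below, so ratios are also given within same-numbered pairs.

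All 9 genes averaged more normalized counts with C28 than with DMSO, and each was higher with C28 in all 3 same-numbered pairs. The ratio of means ran between 1.96 for Smarcd3 and 28.8 for Sstr5, with a median of 2.79. For 8 of the 9 every C28 library lay above every DMSO library, Cxcr4 being the exception. The same held for 8.16% of the 19054 genes tested, and since this contrast chose the genes, nothing is read from that difference. On the log2(normalized count + 1) scale, which understates changes of low genes, the median log2 fold change was 1.45 for the 9 genes and 0.004 for all genes tested. In bulk RNA a larger share of cells that make a transcript and more of it per cell cannot be told apart. No transcript lengths were at hand, so levels are compared between libraries and not between genes.

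**Figure D1:**
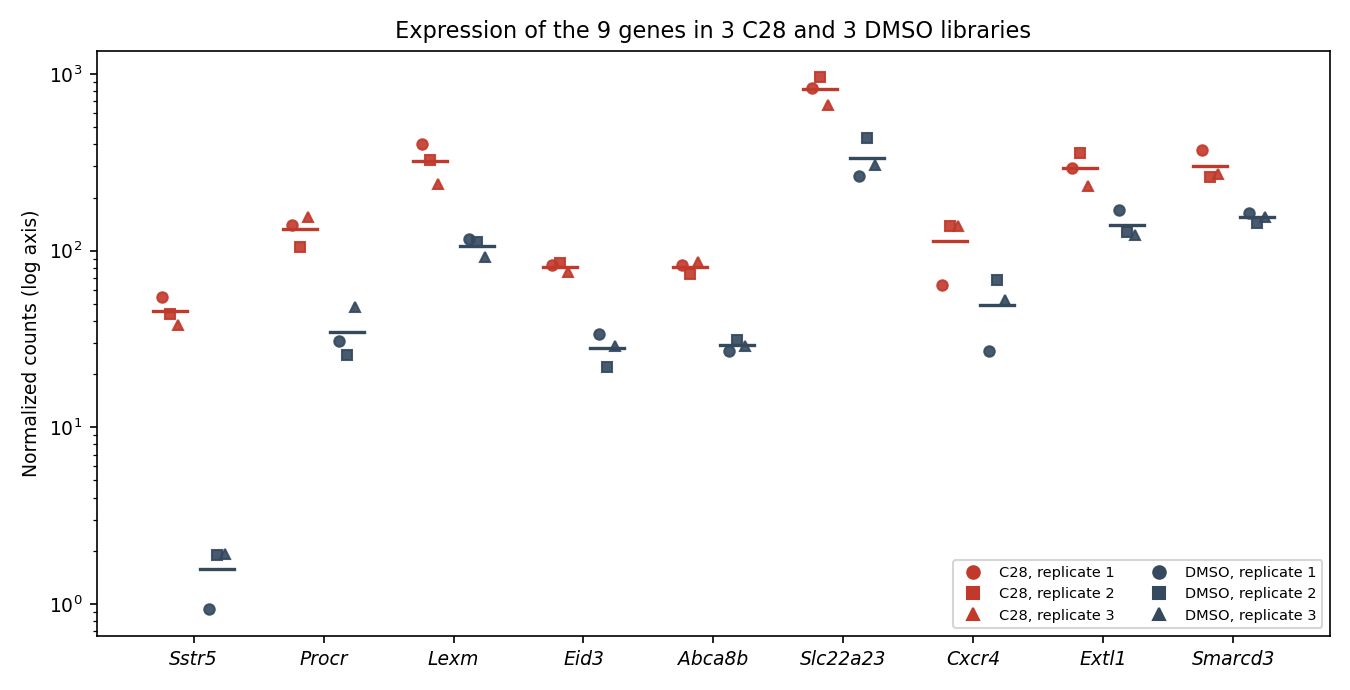
Normalized counts (log axis) of the 9 genes in each RNA library, with 3 C28 libraries left of 3 DMSO libraries for each gene. Symbols give the replicate number and horizontal lines the group means. Sstr5 has the widest gap, from 38.0 to 55.0 with C28 against 0.935 to 1.91 with DMSO, and Cxcr4 is the 1 gene whose groups overlap.

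Among the receptors, Sstr5 was close to absent with DMSO and present at a low level with C28. It had 55.0, 44.0 and 38.0 normalized counts in C28 replicates 1 to 3, against 0.935, 1.90 and 1.91 in DMSO replicates 1 to 3. The lowest C28 library was 19.9 times the highest DMSO library. These values rest on 53, 41 and 37 reads with C28 and on 1, 2 and 2 reads with DMSO. Counting error alone gives the summed reads, scaled for depth, a ratio of 28.9 with an exact 95% interval of 12.1 to 90.5. The log2 fold change was 4.18 ± 0.36 (SE, limma, n = 3 each). In the authors' deposited table the log2 fold change of Sstr5 is 0.82, below the 0.93 given there for Lexm, whose ratio of means was 3.02. The deposited values of all 9 genes are smaller than those of the limma fit, and how they were made is not stated.

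Sstr5 was the one somatostatin receptor with more than stray reads. Sstr1, Sstr2 and Sstr4 had 0 reads in all 6 libraries, which allows up to 3 of 108208382 reads (counting error only), and Sstr3 had reads in DMSO replicate 2 alone, at 1.90 normalized counts. The ligand gene Sst had 0 reads as well. Cort, which encodes the second ligand cortistatin, was at 12.5, 7.51 and 2.06 normalized counts with C28 and at 5.61, 3.81 and 3.83 with DMSO, groups that overlapped. The limma fit gave Cort an adjusted p of 0.952, and 0.741 where the replicate number was a block.

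Procr was at 139, 105 and 155 normalized counts in C28 replicates 1 to 3 and at 30.9, 25.7 and 47.8 in DMSO replicates 1 to 3. All C28 libraries lay above the DMSO libraries. The mean was 133 ± 25.5 with C28 and 34.8 ± 11.6 with DMSO (SD, n = 3 each), a log2 fold change of 1.94 ± 0.28 (SE, limma). Within pairs the ratio was 4.51, 4.09 and 3.25.

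Of the partners that Procr works with on endothelium, some had no reads and others were present. Proc, which encodes protein C itself, and Thbd, which encodes thrombomodulin, had 0 reads in all 6 libraries. Pros1, which encodes the cofactor protein S, averaged 120.2 ± 54.0 normalized counts with C28 and 120.1 ± 46.1 with DMSO (SD, n = 3 each). F2r, the thrombin receptor PAR1, was abundant, at 14966, 14952 and 14867 normalized counts with C28 and at 13331, 14188 and 13942 with DMSO. That is a log2 fold change of 0.11 ± 0.05 (SE) and limma gave an adjusted p of 0.700 without the block and 0.168 with it. Of 16 genes of the protein C and coagulation list 10 could be tested, and 0 rose or fell in either limma fit, with a median log2 fold change of 0.18. Of 7 endothelial markers, 5 had fewer than 10 reads in all libraries together. Kdr, a defining endothelial receptor, had reads in C28 replicate 1 alone, and Emcn, an endothelial surface mucin, in DMSO replicate 1 alone. Pecam1 and Vwf, of the same list, had reads in all 6 libraries. Pecam1 was at 14.5, 32.2 and 27.8 normalized counts with C28 and at 18.7, 35.2 and 31.6 with DMSO. Vwf was at 14.5, 7.51 and 5.14 with C28 and at 7.48, 12.4 and 1.91 with DMSO. The list summed to 30.1 to 39.7 normalized counts with C28 and 29.0 to 55.2 with DMSO, ranges that overlap.

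Cxcr4 differed about as much between replicate numbers as between treatments. It had 64.3, 137 and 139 normalized counts in C28 replicates 1 to 3, against 27.1, 68.5 and 52.6 in DMSO replicates 1 to 3. C28 replicate 1 lay below DMSO replicate 2, so the groups overlapped. Within pairs the ratio was 2.37, 2.00 and 2.64. The log2 fold change was 1.20 with an SE of 0.42, and an SE of 0.17 with the replicate number as a block. Replicate 1 was lower than the other replicates by about the same amount in both arms, by -1.09 with C28 and -1.12 with DMSO on the log2 scale. The summed macrophage markers and the summed fibroblast markers were also lowest in replicate 1 of both arms. Most of the macrophage sum came from Adgre1 and Cd68. Csf1r, of the same list, was at 1.04, 2.15 and 1.03 normalized counts with C28 and at 0.935, 1.90 and 3.83 with DMSO. Lyz2 reached at most 24.7 and Mrc1 at most 9.25 in any library. Adgre1, the macrophage protein F4/80, was at 745, 1650 and 1465 normalized counts with C28 and at 766, 1833 and 1632 with DMSO (limma adjusted p 0.989, and 0.304 if blocked). Pdgfrb, a growth factor receptor of fibroblasts, was at 40.5, 161 and 174 normalized counts with C28 and at 52.4, 257 and 277 with DMSO, and fell in the fit with the block (limma adjusted p 0.0352) but not without it (0.948). It was the 1 fibroblast marker called of 7 tested, whose median log2 fold change was -0.27, with 2 above 0. Dcn, which gave most of their sum, was at 873, 1217 and 2115 with C28 and at 829, 1270 and 1811 with DMSO (limma adjusted p 0.991, and 0.574 with the block). Whether macrophages or fibroblasts were present, and their part in the Cxcr4 values, was not tested.

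Of the tested genes listed around Cxcr4, as ligands, related receptors or general regulators of receptor signals, Ackr3, Rgs2 and Arrb1 fell with C28 in the fit with the block. Whether Rgs2 or Arrb1 acts on the Cxcr4 signal was not tested. Ackr3, the atypical receptor that takes up CXCL12 without G protein signalling, had 28.0, 56.9 and 55.5 normalized counts with C28, against 73.9, 129 and 149 with DMSO. All C28 libraries lay below the DMSO libraries, opposite in direction to Cxcr4. Its log2 fold change was -1.32 ± 0.36 (SE), with a limma adjusted p of 0.394 without the block and 0.00149 with it. Leaving out pair 2 or pair 3 from the fit with the block ended the call (limma adjusted p 0.0726 and 0.0505), and leaving out pair 1 did not (0.00880). On the recovered reads, without the block, its adjusted p was 0.0274 with DESeq2 and 0.413 with edgeR. Rgs2, which shuts off G protein signals, was at 499, 960 and 1020 with C28 and at 1047, 1310 and 1210 with DMSO, a log2 fold change of -0.59 ± 0.26 (SE) for which limma gave an adjusted p of 0.654 without the block and 0.0199 with it. Without C28 replicate 1 the log2 fold change of Rgs2 was -0.26, without pair 1 in the blocked fit it was -0.35, and the blocked call ended without pair 2 (limma adjusted p 0.237). Arrb1, the scaffold beta-arrestin 1, was at 1117, 906 and 914 with C28 and at 1551, 1072 and 1063 with DMSO, for which limma gave 0.734 without the block and 0.0207 with it. The log2 fold change of Arrb1 was -0.31, and -0.13 without DMSO replicate 1, and its blocked call ended without pair 1, 2 or 3 (limma adjusted p 0.0544, 0.232 and 0.119).

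**Figure D2:**
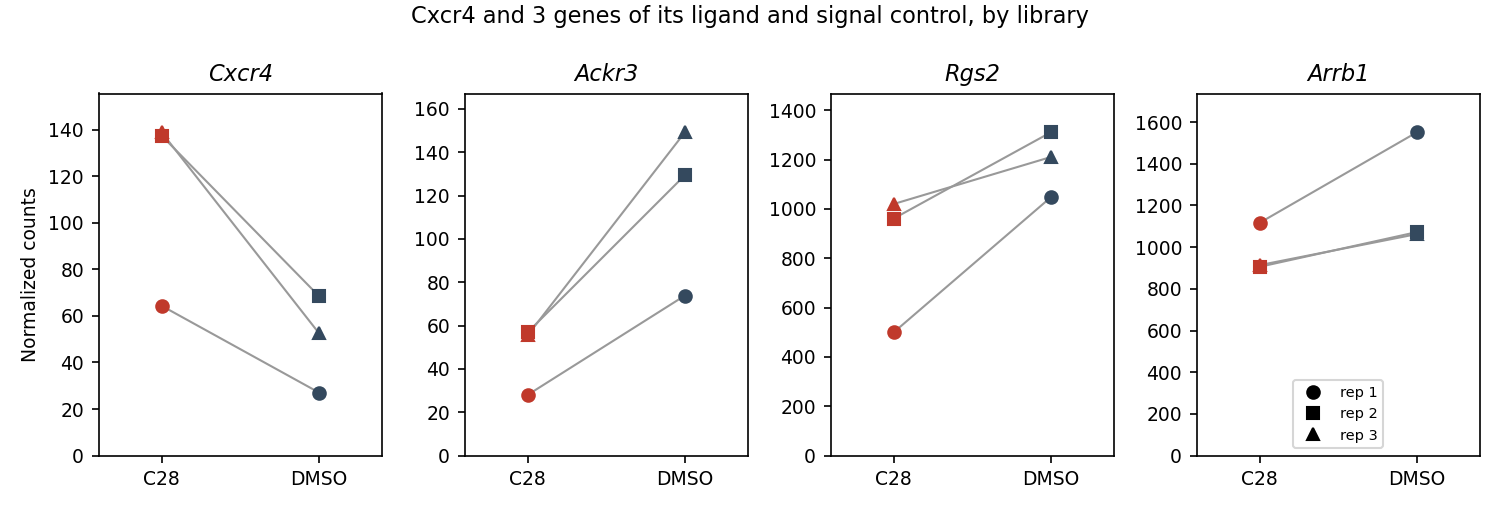
Normalized counts of Cxcr4, Ackr3, Rgs2 and Arrb1, with C28 left of DMSO in each panel and lines joining same-numbered libraries. Cxcr4 is higher with C28 in all 3 pairs, and Ackr3, Rgs2 and Arrb1 are lower in all 3 pairs.

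Of the 18 genes listed around Cxcr4, 17 could be tested and 0 were called without the block. With it 3 fell and 0 rose, against 2.25% lower and 2.55% higher over all genes tested. The median log2 fold change of the 17 was -0.10. Cxcl12 itself was low, at 5.19, 10.7 and 15.4 normalized counts with C28 and 17.8, 9.51 and 23.0 with DMSO (limma adjusted p 0.855, and 0.445 with the block). Cxcr2, a neutrophil and mast cell chemokine receptor, was at 2491, 1749 and 1838 with C28 and at 2061, 1570 and 1628 with DMSO, just outside the threshold with the block (limma adjusted p 0.0506). Markers of T and B lymphocytes, cells in which CXCR4 is common, summed to 0 to 4.29 normalized counts with C28 and 0.957 to 10.5 with DMSO.

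Abca8b was even across libraries in both groups. It had 83.0, 74.0 and 86.3 normalized counts in C28 replicates 1 to 3 and 27.1, 31.4 and 28.7 in DMSO replicates 1 to 3. The mean was 81.1 ± 6.36 with C28 and 29.1 ± 2.17 with DMSO (SD, n = 3 each), a ratio of 2.79 and a log2 fold change of 1.45 ± 0.20 (SE, limma). Its closest relative and neighbour Abca8a, which could have shared reads with it, had 0 reads in all 6 libraries. Of 15 other ABCA genes 8 could be tested, with a median log2 fold change of -0.02 and 4 of the 8 above 0. With the block 1 of the 8 was called, as higher, against 2.55% higher over all genes tested. Abca7, a phospholipid transporter, rose in the fit with the block (limma adjusted p 0.0422) and not without it (0.907). It was at 1040, 548 and 561 normalized counts with C28 and 790, 442 and 499 with DMSO, and the order of replicates was alike in both arms. Its log2 fold change of 0.29 became -0.01 without C28 replicate 1 and 0.54 without DMSO replicate 1, and the blocked call ended without pair 1, 2 or 3 (limma adjusted p 0.134, 0.344 and 0.133).

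Slc22a23 was at 837, 958 and 664 normalized counts in C28 replicates 1 to 3 and at 266, 437 and 305 in DMSO replicates 1 to 3. The C28 libraries all lay above the DMSO libraries, the lowest by 1.52 times the highest. Replicate 2 was the highest in both arms, and the SE of the log2 fold change of 1.30 was 0.21 without the block and 0.10 with it. Of 19 other SLC22 genes 9 had no reads and 6 could be tested, none of which was called in either limma fit, with a median log2 fold change of -0.16. Slc22a5, the carnitine transporter, was at 259, 240 and 291 with C28 and at 299, 304 and 280 with DMSO.

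Extl1 had 295, 355 and 231 normalized counts in C28 replicates 1 to 3, against 169, 128 and 122 in DMSO replicates 1 to 3. The groups did not overlap, although C28 replicate 3 was 1.37 times the highest DMSO library, the narrowest gap among the 8 genes whose groups were apart. The pair ratio was 1.74, 2.79 and 1.89, and the log2 fold change 1.06 ± 0.20 (SE, limma). The other exostosin-like genes were not called. Extl2 was at 443, 502 and 536 with C28 and 505, 554 and 593 with DMSO (limma adjusted p 0.824, and 0.255 with the block), and Extl3 at 1549, 1526 and 1417 with C28 and 1578, 1566 and 1573 with DMSO (0.888, and 0.535 with the block).

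Of 24 genes of heparan sulphate synthesis and editing, 20 were tested and 0 were called without the block. With it 0 rose and 2 fell, against 2.55% higher and 2.25% lower over all genes tested. Both that fell act after the exostosins have built the chain. Ndst2, a sulphotransferase that mast cells need for heparin, was at 4788, 6099 and 6259 normalized counts with C28 and at 5428, 7511 and 7056 with DMSO, a log2 fold change of -0.22 with a limma adjusted p of 0.0183 with the block and 0.819 without. Hs6st1, a 6-O-sulphotransferase, was at 5846, 5479 and 5533 with C28 and at 6457, 6286 and 6395 with DMSO, a log2 fold change of -0.18 with a limma adjusted p of 0.0315 with the block and 0.454 without. Both blocked calls ended without pair 2 (limma adjusted p 0.375 for Ndst2 and 0.381 for Hs6st1) or pair 3 (0.192 for Ndst2 and 0.336 for Hs6st1). With 1 library left out, the log2 fold change of Ndst2 ran from -0.36 without DMSO replicate 1 to -0.10 without C28 replicate 1. Hs6st2, a relative of Hs6st1, went the other way without being called. It was at 32.2, 102 and 136 with C28 and at 27.1, 56.1 and 54.5 with DMSO. Its log2 fold change was 0.80 (limma adjusted p 0.823, and 0.0798 with the block), and it was higher in all 3 pairs.

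Smarcd3 was at 374, 263 and 270 normalized counts in C28 replicates 1 to 3 and at 165, 143 and 156 in DMSO replicates 1 to 3. All C28 libraries were above the DMSO libraries, and replicate 1 was the highest in both arms. The mean was 302 ± 61.9 with C28 and 154 ± 11.0 with DMSO (SD, n = 3 each), and the log2 fold change of 0.95 ± 0.16 (SE, limma) was the smallest of the 9. Its paralogues, which take the same place in the complex, were not called. Smarcd1 was at 1030, 950 and 1045 with C28 and at 1145, 1059 and 1094 with DMSO (log2 fold change -0.13 ± 0.08 SE, limma adjusted p 0.788, and 0.275 with the block). Smarcd2 was at 1617, 1318 and 1304 with C28 and at 1712, 1471 and 1470 with DMSO (log2 fold change -0.14 ± 0.11 SE, limma adjusted p 0.870 without the block, and 0.186 with it).

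Of 25 other BAF and PBAF subunits 24 were tested, with a median log2 fold change of -0.06 and 4 of the 24 above 0. With the block 1 of the 24 was called, as higher, against 2.55% higher over all genes tested. Phf10, a subunit of the PBAF form, rose in the fit with the block, at 4291, 3817 and 3470 normalized counts with C28 against 3514, 2781 and 2681 with DMSO. Its log2 fold change was 0.37 with a limma adjusted p of 0.00166 with the block and 0.506 without. The blocked call of Phf10 ended without pair 2 (limma adjusted p 0.143) or pair 3 (0.0658). No other subunit was called in either fit.

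Eid3 had 83.0, 84.8 and 76.1 normalized counts in C28 replicates 1 to 3, against 33.7, 21.9 and 28.7 in DMSO replicates 1 to 3. The C28 libraries were close together and all above the DMSO libraries, with pair ratios of 2.47, 3.87 and 2.65. By RefSeq on GRCm38.p6 Eid3 lies inside Txnrd1, the gene of cytosolic thioredoxin reductase. Txnrd1 was at 18766, 15770 and 15632 normalized counts with C28 and at 7878, 8685 and 8804 with DMSO. It rose with a log2 fold change of 0.98 ± 0.09 (SE), a limma adjusted p of 0.0109, and 5.08e-05 with the block. Without the block, the call was lost on leaving out C28 replicate 2 (limma adjusted p 0.128), C28 replicate 3 (0.0701), DMSO replicate 1 (0.0564), DMSO replicate 2 (0.0890) or DMSO replicate 3 (0.0956). Leaving out C28 replicate 1 kept the call (0.0125). With the block the Txnrd1 call was kept without pair 1 (limma adjusted p 1.18e-05), pair 2 (0.0223) or pair 3 (0.00227). On the recovered reads, without the block, its adjusted p was 0.00941 with edgeR and 9.53e-16 with DESeq2.

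For every 1000 reads on Txnrd1 there were 4.42, 5.38 and 4.87 on Eid3 in C28 replicates 1 to 3, against 4.27, 2.52 and 3.26 in DMSO replicates 1 to 3. The share was higher with C28 in all 3 pairs, by little in replicate 1. The build used for counting is uncertain, which bears on how reads in the overlap were assigned. How far reads from the longer gene enter the Eid3 count was not tested, and the sources used here do not say whether strand was used in counting. The 3 relatives Eid1, Eid2 and Eid2b and the 6 SMC5/6 subunits listed were all tested, 0 of 9 were called in either limma fit, and their median log2 fold change was -0.01. Nsmce4a, the other gene for the subunit that EID3 can form, was at 1407, 1830 and 1769 with C28 and 1630, 1694 and 1740 with DMSO.

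Lexm was at 403, 327 and 237 normalized counts in C28 replicates 1 to 3 and at 116, 112 and 91.8 in DMSO replicates 1 to 3. All C28 libraries lay above the DMSO libraries, and replicates 1 to 3 held the same order in both arms. The pair ratio was 3.47, 2.92 and 2.59, and the log2 fold change 1.56 with an SE of 0.21, and an SE of 0.12 with the block. Of 5 listed relatives, the Odf3 genes and Pifo, none reached the level needed for testing, and 3 had no reads.

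**Figure D3:**
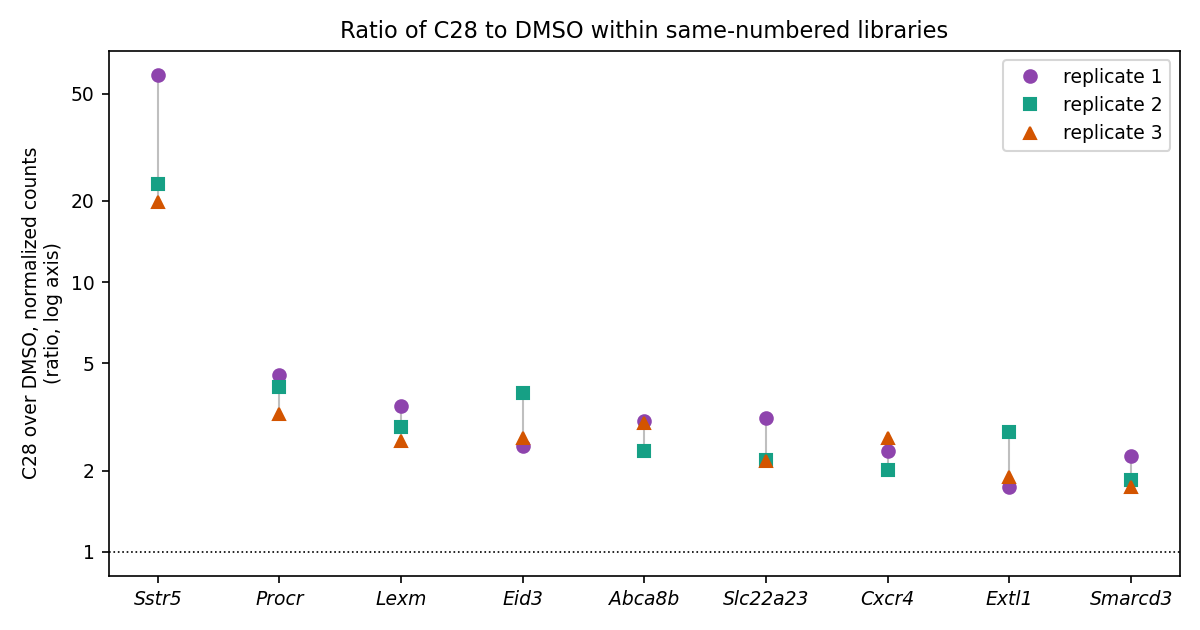
Ratio of C28 to DMSO normalized counts (log axis) within same-numbered libraries for each of the 9 genes. Every ratio lies above 1, and the 3 pairs differ most for Sstr5, with 58.8, 23.1 and 19.9, where the DMSO values rest on 1 or 2 reads.

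Over all 9 family and pathway lists, 95 of 137 genes were tested. Without the block limma called 0 of them, where 7 had an unadjusted p under 0.05, edgeR called 0 and DESeq2 called 1. Over all 19054 genes limma called 0.121% higher and 0.0157% lower, and 1491 had an unadjusted limma p under 0.05. Of the same 19054, edgeR called 28 and DESeq2 called 182. With the block 2 of the 95 rose, Phf10 and Abca7, and 5 fell, Ackr3, Rgs2, Arrb1, Ndst2 and Hs6st1, against 2.55% higher and 2.25% lower over all genes. Of these 7 calls, 5 were kept without pair 1, 0 without pair 2 and 1 without pair 3. The median log2 fold change of the 95 was -0.05.

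**Figure D4:**
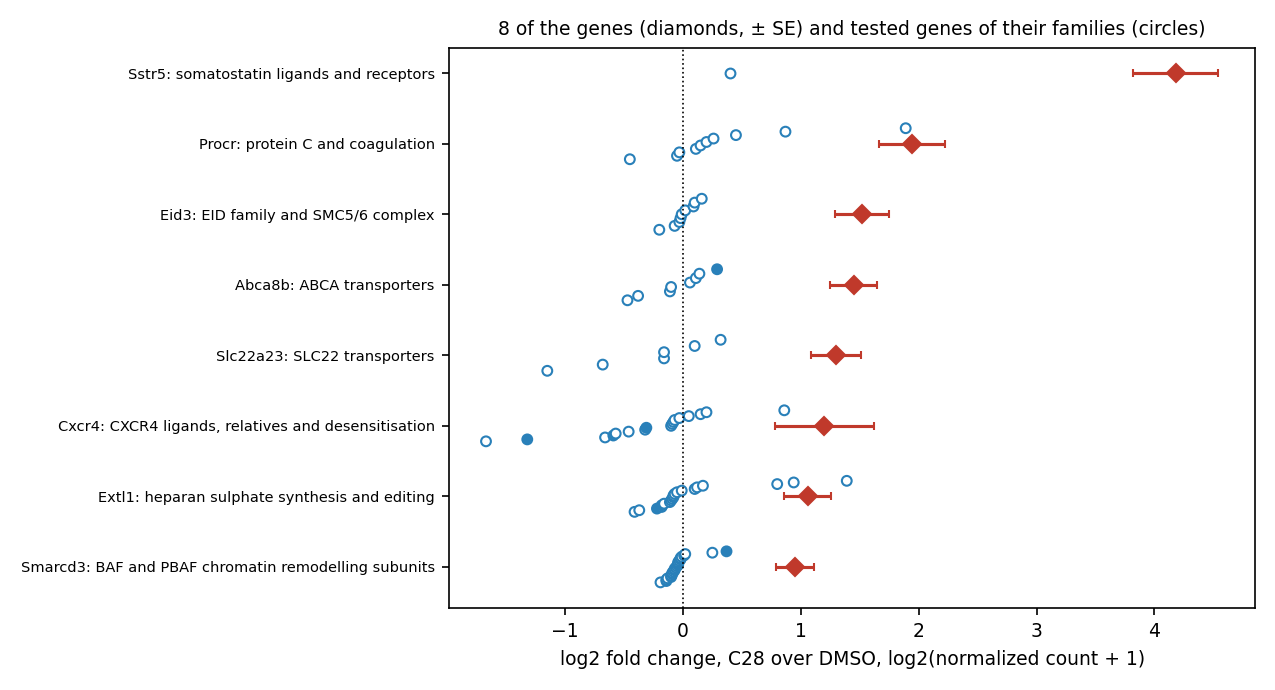
Log2 fold change of C28 over DMSO, on the log2(normalized count + 1) scale, for 8 of the genes (diamonds, with SE) and for the tested genes of their families (circles, filled where called with the replicate block). The medians of the families lie between -0.16 and 0.40, and the genes between 0.95 and 4.18. The 0.40 is that of Cort, the 1 tested gene of its list. Since this contrast chose the genes, nothing is read from the gap between diamonds and circles.

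The genes next to them on the chromosome, or overlapping them, were taken from RefSeq by order alone. Of 20 such neighbours 13 could be tested. Without the block 1 of them rose, against 0.121% of all genes, and with it 2 rose, against 2.55%. Txnrd1 rose in both fits, and Chpf2, a chondroitin sulphate enzyme gene that overlaps Smarcd3, rose with the block. Chpf2 was at 1884, 1632 and 1638 normalized counts with C28 and at 1258, 1346 and 1380 with DMSO, a log2 fold change of 0.37 ± 0.08 (SE) for which limma gave an adjusted p of 0.267 without the block and 0.0118 with it. That blocked call ended without pair 2 (limma adjusted p 0.178) or pair 3 (0.0798), and DESeq2 called Chpf2 without the block (adjusted p 0.0457). Reads of Smarcd3 and Chpf2 in their overlap may not be told apart. None of the other 11 was called. Edem2 beside Procr was at 1655, 1589 and 1424 with C28 and at 1477, 1518 and 1541 with DMSO.

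The profile of each gene over the 6 libraries was compared with those of 11914 other genes averaging at least 20 normalized counts, as a description over 6 points that share the C28 contrast. The profiles most like Sstr5 were those of Dnajb4, an HSP40 co-chaperone (Pearson r = 0.999), and Hmox1, which breaks down haem (r = 0.997). Dnajb4 was at 1218, 1091 and 1117 normalized counts with C28 and at 417, 474 and 487 with DMSO. Procr was most like Nckap1, a subunit of an actin regulatory complex (r = 0.995), and Brd1, a subunit of histone acetyltransferase complexes (r = 0.990). The correlation takes no account of the size of a change. The ratio of means was 1.18 for Nckap1 and 1.09 for Brd1, against 3.83 for Procr, and Brd1 was called in neither fit (limma adjusted p 0.689, and 0.182 with the block). Cxcr4 was most like AA415398 (r = 0.993) and Nupr1, a small stress-induced nuclear protein (r = 0.992). Nupr1, with 61.2, 187 and 175 normalized counts with C28 and 23.4, 72.3 and 63.1 with DMSO, was likewise low in replicate 1 of both arms. For Abca8b these genes were Pnrc1 and Zfand5, for Slc22a23 Tatdn1 and Mrpl14, for Extl1 Gpr19 and Gm43328, for Smarcd3 Uhrf2 and Tesk1, for Eid3 Swt1 and Rmnd5b, and for Lexm Mettl6 and Fam208a. Their ratios of means ran from 1.13 for Tatdn1 to 1.45 for Gpr19. Because they were picked by likeness to genes chosen on the C28 contrast, their own calls on it are not given. Among the 9 themselves, Sstr5 and Abca8b were the most alike (r = 0.991), and Cxcr4 and Smarcd3 the least (r = 0.504).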

How the data were processed

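The genes, their family lists and the tests were chosen with earlier results of these data known. Per the submitters' processing notes the build was mm9 and the tools were Bowtie2 and Cufflinks 2.2.1, with no roles stated. Some gene identifiers in the expression table are newer than annotations of mm9, so the build used for counting is uncertain. The deposited expression table holds a normalized signal per gene and library that the authors made by dividing read counts by 1 size factor per library: dividing by the worth of 1 read gave whole reads for 100% of values (tolerance 0.01). Its log2 fold change column and its adjusted p-value column are the authors' own. The H3K27ac peak lists were not used, since no gene annotation of their build was at hand.

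Of rows with a repeated name the highest was kept. The filter asked for 1 or more normalized counts in 3 or more of the 6 libraries and left 19054 genes. limma 3.58.1 (R 4.3.3) was fitted to log2(value + 1) with its intensity trend, Benjamini-Hochberg adjustment and a threshold of 0.05. Because the values are normalized, this test replaced a count test, and edgeR 4.0.16 and DESeq2 1.42.0 were run on the recovered reads as alternatives. Values from a blocked fit (block: replicate number) stand beside results of the lists and neighbours that it changed, since same-numbered libraries deviated together (10572 genes). No label states this pairing, so it comes from the data. The fit without the block was also run on simulated counts. These held no shared deviation of same-numbered libraries, so they cannot show how the fit behaves where there is one. Named genes were the 9 genes, genes of the lists, and for each of the 9 the 2 genes most correlated with it. The rule for neighbours, every overlapping gene and the nearest with a row on each side, and the note on Eid3 and Txnrd1 were added after values were seen. The protocols name 2 RNA library kits, 1 of which marks strand. Intervals cover counting error only.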

Additional observations from a re-analysis of the deposited data

How the results depend on the processing

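Over 18 alternatives the 9 genes gave 162 fold changes, 155 of which moved by less than the spread between replicates, and 0 changed sign. The other 7 were of Sstr5, 2.93 with a pseudocount of 5 and 4.85 with DESeq2 among them, and of Abca8b. The median of the 9 lay at 1.34 or above. The number of genes called moved more: from 26 to 51 without an intensity trend, 914 with the replicate block and 182 with DESeq2, where edgeR called 28. Leaving out 1 library gave 0 to 23 calls, 0 of them without C28 replicate 2 (limma, with 1204 genes at an unadjusted p under 0.05), 8 without C28 replicate 3, and 9, 8 and 5 without DMSO replicates 1 to 3. With the replicate block and 1 pair left out, 50 to 853 genes were called, 50 without pair 2, 207 without pair 3 and 853 without pair 1. Among the family lists 1 gene was called without the trend, 1 with DESeq2 and 7 with the replicate block, 0 to 7 with a pair left out. The log2 fold change of Abca7 was -0.01 without C28 replicate 1, and -0.01 to 0.54 with any 1 library left out. The cause was not tested. Txnrd1 missed the threshold without the intensity trend (limma adjusted p 0.0831). Other peak thresholds and overlaps were not run, since the peaks were not used. Few reads of Sstr5 with DMSO limit the precision of its fold change.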
